A study of Mus musculus with 8 samples.

Results

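Tetraspanins are small membrane proteins that cross the membrane several times and gather integrins, immunoglobulin-like proteins, proteases and each other into patches called tetraspanin-enriched microdomains. Some members sit mainly at the cell surface and others mainly on endosomes, where they take part in sorting cargo into the inner vesicles of multivesicular bodies, the compartments whose fusion with the plasma membrane releases exosomes. Myeloid cells, microglia among them, express several members. Cd63 and Cd9 are known as genes whose mRNA is high in the activated states of microglia that arise in ageing and neurodegeneration. Described here is H3K27ac, the acetylated form of lysine 27 in histone H3 that marks promoters and enhancers in use, at 7 tetraspanin genes: Cd63, Cd9, Cd81, Cd82, Cd37, Cd53 and Cd151. Members were taken by name, as every region that the deposited table assigns to one of these symbols by its nearest start site. This gave 99 of 129304 regions and 7 of 18707 genes, with 9 regions for Cd63, 43 for Cd9, 11 for Cd81, 19 for Cd82, 5 for Cd37, 9 for Cd53 and 3 for Cd151.

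Nuclei came from brains of C57BL/6 mice aged 2 years that were wild type (WT) or carried the genotype GrnKO, the loss of Grn, which encodes the secreted and lysosomal protein progranulin. The nuclei were fixed, stained and sorted as positive for PU.1, a myeloid transcription factor, and negative for the oligodendrocyte lineage protein OLIG2 and the neuronal protein NEUN. Each genotype had 2 replicates, each a pool of sorted nuclei from 2 mice, with an H3K27ac library and an input library (chromatin sequenced without immunoprecipitation) per pool, and H3K27ac was compared between GrnKO and WT. The labels used here do not give the sex of the mice or the structure of the Grn allele.

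The 4 H3K27ac libraries held 15491642.5 to 20030832 tags, and the 4 inputs 4078179 to 14415969 tags. The share of H3K27ac tags in the listed regions was 49.4% in WT replicate 1 and 63.3% to 65.7% in the other 3 libraries, so WT replicate 1 stood apart. Values below are TMM-scaled tags: tags of an 800 bp region, or of all regions of a gene, at a library total of 10000000, divided by a factor (TMM) that aligns most regions between libraries and was 0.825 for WT replicate 1 and 1.04 to 1.08 for the others. As a check of the labels, 4 of the 10 Grn regions held 0 tags in both GrnKO libraries and over 100 scaled tags in both WT libraries. The libraries with replicate number 1 of both genotypes held 81.7 and 128 scaled tags at Xist, against 0 and 5.49 in those with number 2. At Y-linked promoters the number 2 libraries held 269.6 and 220.2, against 5.81 and 0. The replicate number thus separates pools in both genotypes, and changes within each number are given beside the gene sums below.

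Of the markers of microglia, 4 of 5 (Cx3cr1, Tmem119, Sall1 and Csf1r) were lower in GrnKO by the limma test, beside 5.85% of all genes. The list summed to 31541 and 34860 scaled tags in WT and 24203 and 25880 in GrnKO. With the authors' scaling, without TMM factors, 0 of these 5 were called, and P2ry12 had a log2 change of 0.01. The median log2 change of all genes was then 0.18, against -0.05 with TMM factors. The 5 markers of border macrophages summed to 819 and 826 in WT and 951 and 880 in GrnKO, with 0 called by limma with TMM factors. Among them F13a1 had a log2 change of 0.60 (limma adjusted p = 0.0545), while Cd163, Lyve1 and Pf4 had changes below 0. F13a1 was called higher with the authors' scaling (0.82, limma adjusted p = 0.0158). By DESeq2, 1 marker of this list was called higher. B cell markers summed to 344 and 309 in WT against 701 and 584 in GrnKO. The B cell sum was carried by Ms4a1, which was called higher, while Cd79a had no region and Pax5 was at or under 0.564 scaled tags in every library. Cd79b held 125 and 111 in WT and 91.4 and 121 in GrnKO (log2 change -0.16, limma adjusted p = 0.733). Monocyte and neutrophil markers summed to 415 and 408 in WT and 343 and 270.1 in GrnKO, with S100a8 called higher and Ccr2 lower. S100a8 held only 0 and 5.24 in WT and 20.4 and 18.7 in GrnKO (limma adjusted p = 0.0487). By edgeR and by DESeq2, 0 markers of this list were called higher. With the authors' scaling Ccr2 was not called (limma adjusted p = 0.523). S100a9 held 0 tags in 3 of the 4 libraries. Sums for T and NK cells (30.2 to 66.5) and mast cells (3.13 to 8.65) were low in all 4 libraries. Oligodendrocyte markers summed to 2004 and 2093 in WT and 2539 and 2682 in GrnKO (Mbp called higher, Mog lower), astrocyte markers to 3409 and 3450 in WT and 3160 and 3203 in GrnKO, neuron markers to 219 and 272 in WT and 178.5 and 149 in GrnKO (Syt1 called lower), and endothelial markers to 1272 and 1176 in WT and 1148 and 1214 in GrnKO (Flt1 called higher, Pecam1 lower). The part of these differences in the results below was not tested. In pooled nuclei, a change in the share of a cell type cannot be told apart from a change in acetylation per nucleus.

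The bases just before the start sites of 5 members are shown first, because the results turn on whether acetylation moved at the start site or away from it. The windows are 250 bases long, end at the base before the RefSeq start site and are written 5′ to 3′ on the strand of the gene, from the RefSeq table of GRCm38.p6. They lie at chr10:128909095-128909344 (Cd63, plus strand), chr6:125494761-125495010 (Cd9, minus), chr7:143052500-143052749 (Cd81, plus), chr2:93461852-93462101 (Cd82, minus) and chr7:45238840-45239089 (Cd37, minus). Capitals mark the motifs found among 4 that were searched on both strands: CACGTG (the E-box at the centre of the CLEAR element of lysosomal genes), TCATGTG (M-box), TGANTCA (AP-1) and GAGGAA, or TTCCTC on the other strand, the core of sites bound by PU.1.
Cd63: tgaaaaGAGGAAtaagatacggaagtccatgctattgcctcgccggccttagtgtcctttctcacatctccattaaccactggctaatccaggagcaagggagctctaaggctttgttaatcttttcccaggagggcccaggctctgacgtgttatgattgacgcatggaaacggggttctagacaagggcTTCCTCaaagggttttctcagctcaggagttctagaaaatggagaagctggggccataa
Cd9: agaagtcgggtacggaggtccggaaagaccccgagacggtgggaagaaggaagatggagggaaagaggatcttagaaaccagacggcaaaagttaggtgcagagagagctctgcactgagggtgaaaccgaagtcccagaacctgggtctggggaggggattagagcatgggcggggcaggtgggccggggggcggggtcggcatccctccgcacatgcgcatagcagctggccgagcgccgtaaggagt
Cd81: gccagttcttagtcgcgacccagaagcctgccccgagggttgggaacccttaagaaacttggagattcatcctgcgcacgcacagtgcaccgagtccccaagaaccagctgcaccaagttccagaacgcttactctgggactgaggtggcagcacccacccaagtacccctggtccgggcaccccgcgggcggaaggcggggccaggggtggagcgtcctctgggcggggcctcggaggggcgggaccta
Cd82: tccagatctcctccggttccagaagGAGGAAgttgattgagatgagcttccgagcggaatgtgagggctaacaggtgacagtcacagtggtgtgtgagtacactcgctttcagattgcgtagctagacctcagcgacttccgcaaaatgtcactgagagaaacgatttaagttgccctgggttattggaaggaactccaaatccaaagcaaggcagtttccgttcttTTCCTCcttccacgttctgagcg
Cd37: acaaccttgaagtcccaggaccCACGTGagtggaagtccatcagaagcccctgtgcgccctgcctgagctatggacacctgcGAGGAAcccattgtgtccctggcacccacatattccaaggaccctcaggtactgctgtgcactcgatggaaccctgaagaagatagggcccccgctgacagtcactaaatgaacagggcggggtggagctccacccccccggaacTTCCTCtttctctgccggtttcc

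All 7 members matched the RefSeq table, with 11 start-site windows in all. The PU.1 core was in 4 of these 11 windows, against 23.25% of 32851 windows of the same length for all genes. In Cd63 it starts at -244 and -59, in Cd37 at -168 and -23, in the Cd82 window shown at -225 and -23, and in Cd53 at -39, counted from the start site. CACGTG was in 1 window, that of Cd37 at -228, against 6.02% of all windows. TCATGTG (3.25% of all windows) and TGANTCA (6.75%) were in 0 of the 11. The Cd9 and Cd81 windows held none of these 4 strings of letters and had 16 CpG dinucleotides each, against 6 in Cd63.

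Summed over all regions of a gene, H3K27ac was higher in GrnKO at Cd63 and Cd9 and lower at Cd81 and Cd82, and the changes of Cd37, Cd53 and Cd151 did not pass the test. These calls are from limma across 15396 genes with Benjamini-Hochberg adjustment at 0.05, by which 14.4% of all genes were called, 8.55% higher and 5.85% lower. Because the 7 genes were proposed with earlier results of these libraries known, their calls are a description and not independent support. The values of the 2 genotypes did not overlap for any of the 7 genes: 4 were higher in both GrnKO libraries (Cd63, Cd9, Cd37 and Cd151; 25.4% of all genes) and 3 lower (Cd81, Cd82 and Cd53; 29.4%). With the authors' scaling the values of Cd53 overlapped, with 667 and 924 in WT against 773 and 819 in GrnKO, and its log2 change was 0.02.

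**Figure D1:**
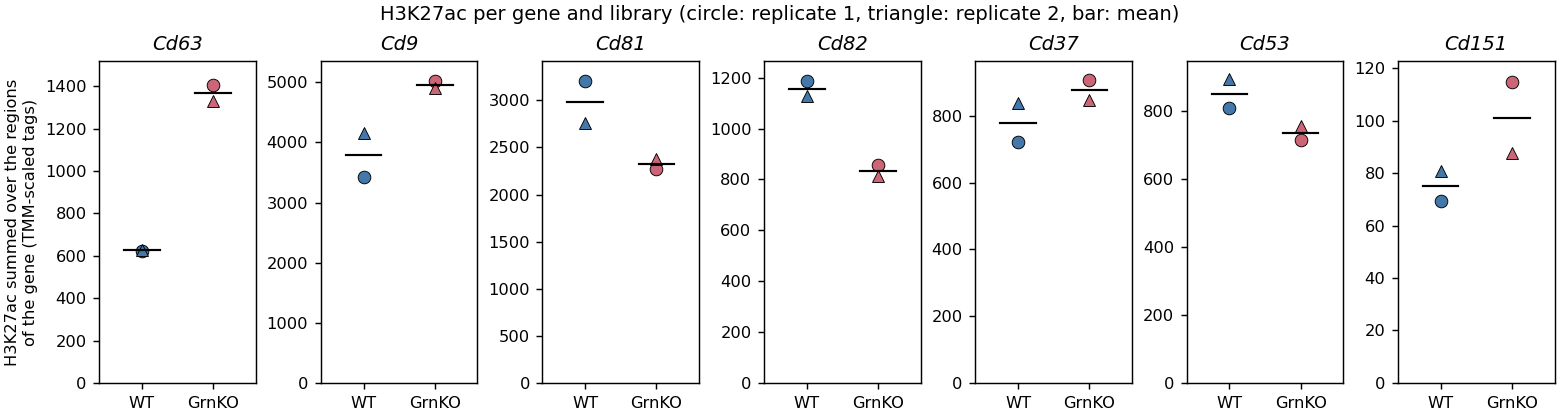
H3K27ac summed over all regions of each gene in TMM-scaled tags (vertical axes, each from 0) for the WT and GrnKO libraries; circles are replicate 1, triangles replicate 2 and bars the mean of the 2. Cd63 sits at 624 and 629 in WT and at 1407 and 1329 in GrnKO, while the other 6 genes have smaller ratios between the genotypes.

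Cd63 encodes the tetraspanin of late endosomes, lysosomes and exosomes. Its regions summed to 624 and 629 scaled tags in WT, and GrnKO had 1407 and 1329. WT replicates differed by little and both GrnKO libraries were far above them: the mean rose from 626 ± 3.49 to 1368 ± 55.3 (SD, n = 2 each), which is 2.18-fold. The log2 change was 1.13 with a standard error (SE) of 0.11 and an adjusted p of 2.29e-05 by limma. Within replicate number 1 the ratio of GrnKO to WT was 2.26, and within number 2 it was 2.11. With the authors' scaling the log2 change was 1.35 (adjusted p = 5.12e-07), and Cd63 was called with any 1 library left out. Subtracting the input of the same pool ended the call at a similar size (1.18, adjusted p = 0.115), as it did those of Cd9, Cd81 and Cd82 below (adjusted p = 0.253, 0.199 and 0.161), and it left 0 of all 15396 genes called by limma, with 2597 at an unadjusted p under 0.05.

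Cd9 encodes a mainly cell-surface tetraspanin that binds integrins and the immunoglobulin-like proteins Igsf8 and Ptgfrn and restrains fusion of macrophages. Its sums were 3429 and 4163 in WT against 5018 and 4906 in GrnKO. WT replicate 1 was the lowest library, and the WT replicates lay about as far from each other as WT replicate 2 lay from either GrnKO library. WT averaged 3796 ± 519 and GrnKO 4962 ± 79.5 (SD, n = 2 each), a ratio of 1.31 (log2 change 0.39, SE 0.09, limma adjusted p = 0.00985). Within replicate numbers 1 and 2 the ratios were 1.46 and 1.18. The call was lost with the authors' scaling (log2 change 0.62, adjusted p = 0.138), and with only regions within 10000 bp of the start site (0.35, adjusted p = 0.0598). The log2 change was 0.25 without WT replicate 1 and 0.53 without WT replicate 2, a gap of over 1.5 times.

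Cd81 encodes a surface tetraspanin known as a part of the B cell co-receptor. Its sums were 3207 and 2759 in WT against 2273 and 2381 in GrnKO. Both GrnKO libraries lay below both WT libraries: the mean fell from 2983 ± 317 to 2327 ± 76.6 (SD, n = 2 each), a ratio of 0.780. The log2 change was -0.35 (SE 0.09, limma adjusted p = 0.0199). Cd82 encodes KAI1, a tetraspanin that restrains integrin-dependent adhesion and movement. Its sums were 1186 and 1126 in WT against 856 and 814 in GrnKO. The replicates were close within each genotype, with means of 1156 ± 42.6 and 835 ± 29.7 (SD, n = 2 each) and a ratio of 0.722 (log2 change -0.47, SE 0.11, limma adjusted p = 0.00993). Within replicate numbers 1 and 2 the ratios were 0.709 and 0.863 for Cd81 and 0.721 and 0.723 for Cd82. Both calls were lost with the authors' scaling, where the log2 changes were -0.13 for Cd81 (adjusted p = 0.845) and -0.24 for Cd82 (adjusted p = 0.628), and both were lost without GrnKO replicate 1 (adjusted p = 0.167 and 0.0607). Cd82 was also not called without GrnKO replicate 2 (adjusted p = 0.110). The 2 scalings differ by a common shift: the median log2 change of all genes was -0.05 with TMM factors and 0.18 without, a shift of 0.22. Relative to that median, Cd63 stood at 1.17 with TMM factors and 1.18 without, Cd9 at 0.44 under both, Cd81 at -0.31 and -0.30, and Cd82 at -0.42 under both.

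The leukocyte tetraspanins Cd37 and Cd53 and the integrin partner Cd151 did not pass the test. Cd37 summed to 722 and 838 in WT and 909 and 847 in GrnKO, with a log2 change of 0.17 (SE 0.12, limma adjusted p = 0.396) and a ratio of 1.26 within replicate number 1 and 1.01 within number 2. Cd53 summed to 808 and 892 in WT and 715 and 757 in GrnKO, a log2 change of -0.21 (SE 0.12, limma adjusted p = 0.287). Cd151 had the fewest tags, 88.5 to 202.5 per library before scaling. It summed to 69.2 and 80.9 in WT and 114.6 and 87.6 in GrnKO, and the difference (log2 change 0.42, SE 0.26, limma adjusted p = 0.341) did not pass, with GrnKO replicates that lay farther apart than the WT ones.

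**Figure D2:**
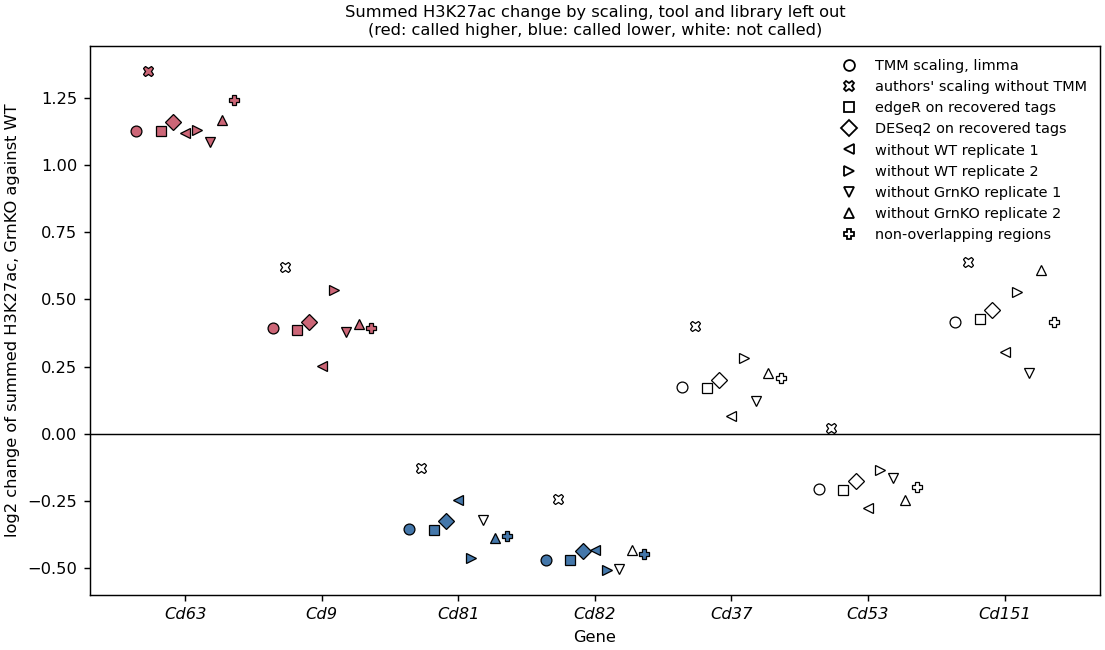
The log2 change of summed H3K27ac, GrnKO against WT (vertical axis), of each gene under 9 settings: TMM scaling with limma, the authors' scaling, 2 count tools on the recovered tags, each library left out and non-overlapping regions. Red symbols are called higher, blue lower and white not called. Cd63 is red in all 9, Cd9, Cd81 and Cd82 turn white with the authors' scaling, Cd81 and Cd82 without GrnKO replicate 1 and Cd82 without GrnKO replicate 2, and the Cd53 symbol for the authors' scaling lies above 0 at 0.02.

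At the level of single regions, 86 of the 99 passed the filter on low tags. The other 13 held at most 9.68 scaled tags in any library, and 9 of them lie upstream of Cd82. By limma across 80914 regions, 15 member regions were called higher (8 of Cd63 and 7 of Cd9) and 5 lower (2 of Cd81 and 3 of Cd82), beside a background of 9.69% of all tested regions called, 6.78% higher and 2.91% lower. With the authors' scaling these counts were 16 and 0, where 8.14% of all tested regions were called higher and 0.413% lower. At an unadjusted p under 0.05 there were 38 of the 86, against 23.9% of all tested regions. Regions of Cd37, Cd53 and Cd151 had 0 calls by limma, by edgeR and by DESeq2 on recovered tags, with 3 at an unadjusted p under 0.05 by limma. The WT and GrnKO values did not overlap in 42 regions that were higher in GrnKO (27% of all tested regions) and 19 that were lower (25.6%). Of the 17 tested regions within 1000 bp of a start site 3 were called, all of them at Cd63, and of the 69 tested regions farther away 17 were. Over all genes, calls by limma were also more frequent away from start sites. Sums of regions within 1000 bp gave 396 higher and 184 lower of 11097 genes. Sums of regions farther away gave 1241 higher and 807 lower of 11384. Regions can overlap, as 52 of the 99 do with another listed region, so their values share tags.

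**Figure D3:**
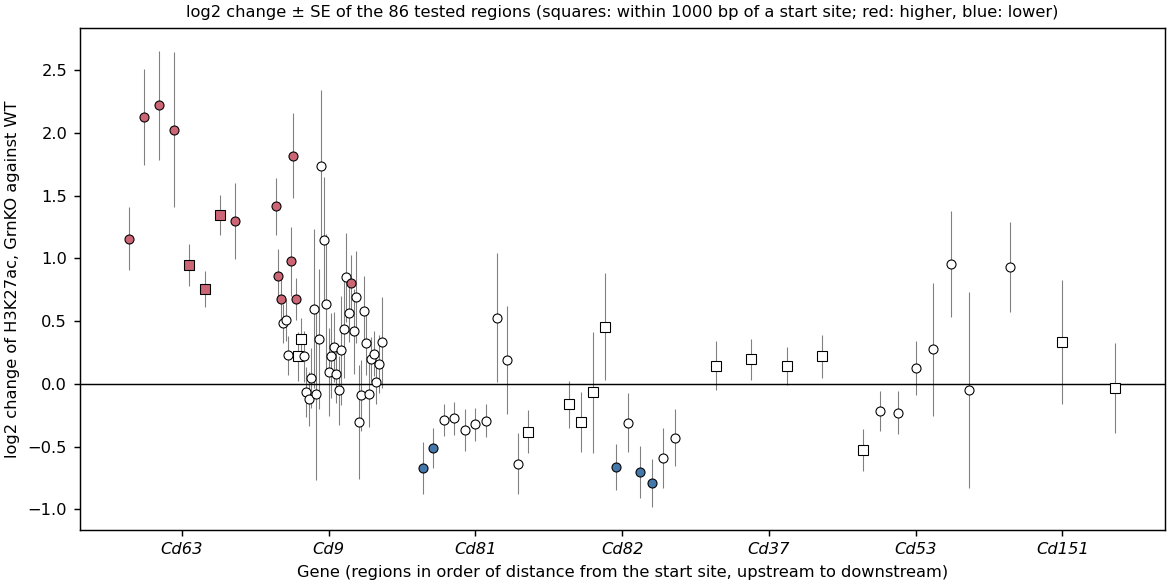
The log2 change ± SE of the 86 tested regions (vertical axis, GrnKO against WT), grouped by gene and ordered from upstream to downstream of the start site; squares lie within 1000 bp of it. Red marks regions called higher and blue regions called lower. All 8 Cd63 regions are red, 6 of the 7 red Cd9 regions are at the upstream end, and the blue regions of Cd81 and Cd82 are away from their start sites; with the authors' scaling 0 of the blue regions are called.

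At Cd63 every tested region was higher in GrnKO, upstream, at the start site and in the gene body. Distances are from the region's centre to the nearest start site in the authors' annotation, negative upstream, and coordinates are those of the table (build mm10 per the submitters' processing notes). The smallest p belonged to chr10:128910118-128910918, at 652 bp and in intron 2 of 7, which held 138 and 139.6 scaled tags in WT and 338 and 374 in GrnKO. That is 139 ± 0.796 against 356 ± 26.02 (SD, n = 2 each; log2 change 1.35, SE 0.16, limma adjusted p = 3.88e-05). The highest promoter region, chr10:128909357-128910157, lies over another start site of the authors' annotation and held 217 and 207 in WT and 357 and 360.5 in GrnKO (log2 change 0.76, SE 0.15, limma adjusted p = 0.00259). The region over the Cd63 bases printed above, chr10:128908833-128909633, held 159.9 and 143 in WT and 321 and 268 in GrnKO (0.95, SE 0.17, adjusted p = 0.00131). These last 2 regions, over the start sites, were high in WT already and had the smallest log2 changes of the 8.

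The intergenic regions upstream of Cd63 were low in WT. At -2850 bp (chr10:128905669-128906469) the WT libraries held 17.2 and 10.99 scaled tags and the GrnKO libraries 74.1 and 54.6, a ratio of 4.57 (log2 change 2.13, SE 0.38, limma adjusted p = 0.00147). At -2500 bp, in an overlapping region, the values were 8.21 and 12.6 in WT against 65.4 and 39.9 in GrnKO, a ratio of 5.06. At -1685 bp they were 4.30 and 4.45 against 25.2 and 17.3, on 5.5 and 8.5 tags in the WT libraries, above the limit of 3 tags taken as the floor of detection. At -6348 bp they were 47.7 and 45.8 against 111 and 99.8. The exonic region at 1692 bp was the one where WT replicates differed most, with 30.9 and 64.4 in WT and 112 and 111 in GrnKO. In all, 6 of the 8 regions were called and at least 2-fold higher. Without GrnKO replicate 1 the log2 changes of the 8 were 0.76 to 1.91, and without GrnKO replicate 2 they were 0.75 to 2.57. Fewer of the 8 were called in both cases, as were fewer of all tested regions.

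**Figure D4:**
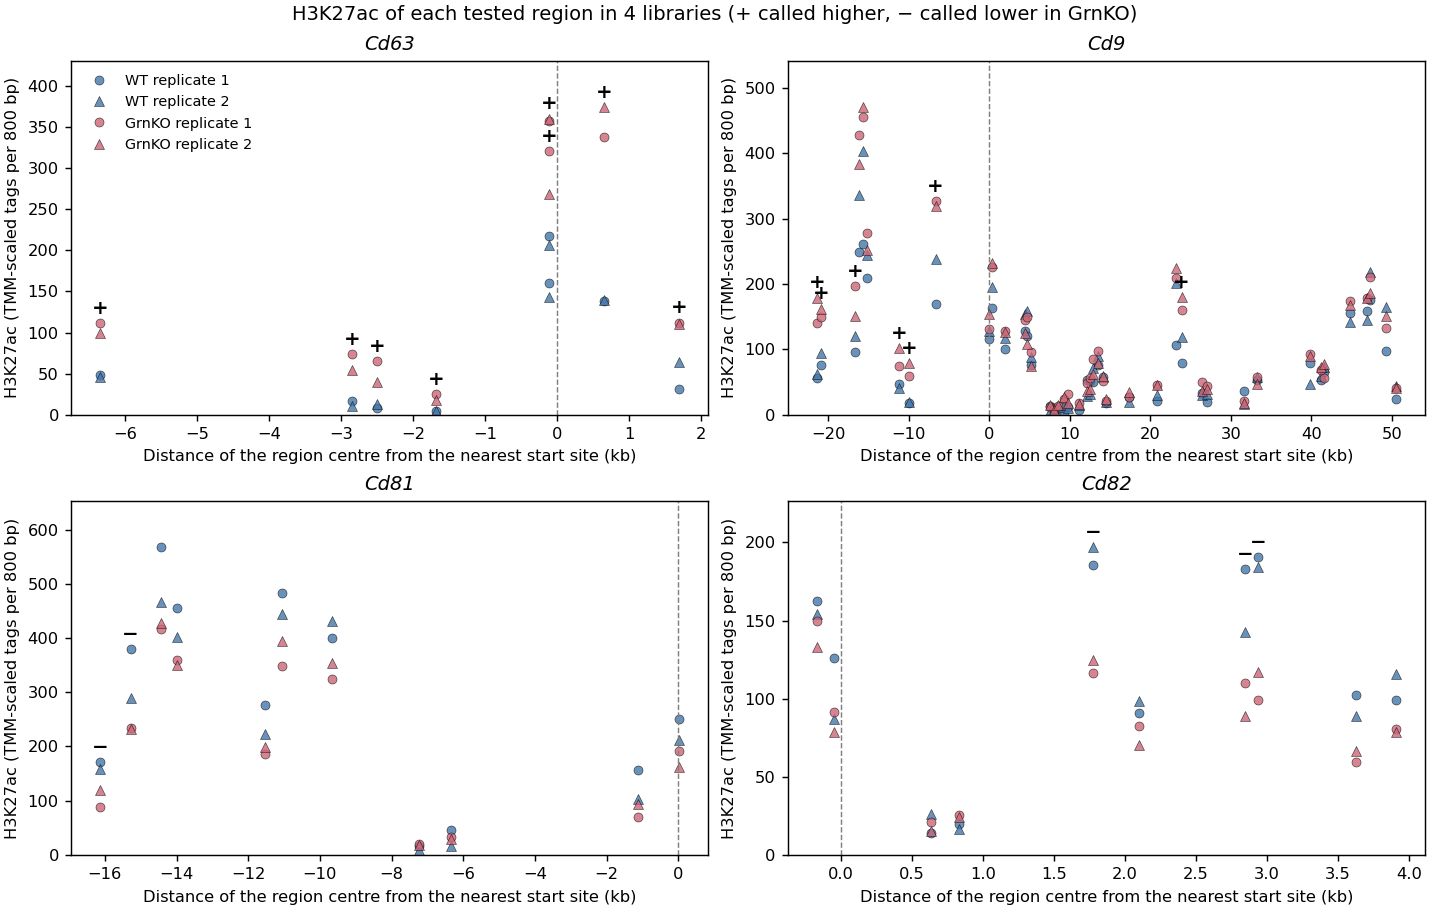
H3K27ac of each tested region in TMM-scaled tags per 800 bp (vertical axes) against the distance of its centre from the nearest start site in kb (horizontal axes; the dashed line is the start site) for Cd63, Cd9, Cd81 and Cd82; blue is WT, red GrnKO, circles replicate 1 and triangles replicate 2. Plus signs mark regions called higher and minus signs regions called lower in GrnKO. Calls run along the whole of Cd63, lie mainly upstream of Cd9, and lie away from the start sites of Cd81 and Cd82, where 0 are called with the authors' scaling.

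The 43 regions of Cd9 fall into a group upstream of the gene, 2 regions at the start site, 24 in the gene and 8 downstream, a division made after the values were seen. Upstream, 6 of 9 regions were called higher and their sum was 1183 and 1561 in WT and 2108 and 2099 in GrnKO. In the gene 1 of 24 was called, and 0 of 8 downstream and 0 of 2 at the start site. The smallest p was at -21399 bp (chr6:125515759-125516559), with 55.5 and 62.3 scaled tags in WT and 140.1 and 179 in GrnKO, a ratio of 2.71 (log2 change 1.41, SE 0.23, limma adjusted p = 0.000578). At -9979 bp (chr6:125504339-125505139) the values were 17.99 and 19.4 in WT against 59.1 and 79.1 in GrnKO, a ratio of 3.70 (1.82, SE 0.34, adjusted p = 0.00205). In that region the input of WT replicate 1 held 78.5 tags in the authors' scaling, above the 14.9 of its H3K27ac library. At -20893 bp (chr6:125515253-125516053), which shares tags with the first, the values were 76.6 and 94.8 against 149 and 162 (0.86, SE 0.21, adjusted p = 0.0134).

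The most acetylated Cd9 region was also upstream, at -15649 bp, with 262 and 404 scaled tags in WT and 455 and 471 in GrnKO. Its WT replicates were far apart, and it did not pass the test (log2 change 0.51, limma adjusted p = 0.0594). At the start site the region at 298 bp held 163 and 196 in WT and 226 and 232 in GrnKO (0.36, adjusted p = 0.204), and the region at -36 bp held 116 and 127.5 against 130.4 and 154 (0.22, adjusted p = 0.553). The single called region in the gene lies in intron 2 of 7 at 23888 bp and held 78.6 and 119 in WT and 160.1 and 180.5 in GrnKO (0.81, adjusted p = 0.0252). The 8 downstream regions, 39879 to 50487 bp from the start site, summed to 809 and 892 in WT against 954 and 964 in GrnKO. More Cd9 regions were called without WT replicate 2 and fewer without either GrnKO library. Calls over all tested regions moved the same way in these settings.

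Most acetylation assigned to Cd81 lies outside the gene. Its 10 regions upstream of the promoter are annotated to introns of the long noncoding RNA gene R74862, at -16127 to -1122 bp from the Cd81 start site, and they carried 91.5% to 93.2% of its tags in all 4 libraries. The strongest was at -14423 bp, with 568 and 468 scaled tags in WT and 416 and 428 in GrnKO, and it was not called (log2 change -0.29, limma adjusted p = 0.181). The called regions were the 2 farthest out. At -16127 bp (chr7:143036223-143037023) the values were 172 and 158 in WT against 88.8 and 119.9 in GrnKO (log2 change -0.67, SE 0.21, limma adjusted p = 0.0472). At -15280 bp (chr7:143037070-143037870) they were 380.1 and 290.4 in WT against 233 and 233 in GrnKO (-0.51, SE 0.16, adjusted p = 0.0488). Both lie close to the threshold. The number of Cd81 regions called lower was 1 by edgeR and 0 by DESeq2, with the authors' scaling and without a filter on low tags. Fewer Cd81 regions were called lower without either GrnKO library or without WT replicate 1, and more without WT replicate 2. Over all tested regions, lower calls fell without either GrnKO library and rose without either WT library. The promoter region (chr7:143052370-143053170) held 251 and 211 in WT and 192 and 163 in GrnKO (-0.38, SE 0.17, adjusted p = 0.187).

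Farther upstream on the same chromosome, at -44005 to -30811 bp from the Cd81 start site, 5 regions of Tspan32, a tetraspanin gene of blood cells, were called lower. The highest of them (chr7:143021124-143021924) held 479 and 543 scaled tags in WT and 344 and 299 in GrnKO (log2 change -0.67, limma adjusted p = 0.00358). All regions of other genes within 50000 bp of the Cd81 start site had 27 tested members, 5 lower and 0 higher. Of all tested regions, 2.91% were called lower and 6.78% higher. The median log2 change of these neighbours was -0.57, and -0.52 for the 14 tested within 10000 bp, of which 0 were called. With the authors' scaling the summed H3K27ac of Tspan32 was not called (log2 change -0.46, limma adjusted p = 0.238).

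At Cd82 the lower regions were inside the transcribed stretch. Of the 6 tested intronic regions 3 were called lower, and of the 4 regions within 1000 bp of a start site 0 were. The lower calls at Cd82 numbered 0 with the authors' scaling. They were fewer without either GrnKO library, as were lower calls over all tested regions. They were also fewer without WT replicate 1, where lower calls over all tested regions rose. Part of these introns is shared with the noncoding gene Gm10804. At 2934 bp (chr2:93458517-93459317) the libraries held 190.4 and 184 scaled tags in WT and 99.3 and 117 in GrnKO, 187 ± 4.32 against 108 ± 12.7 (SD, n = 2 each; log2 change -0.79, SE 0.19, limma adjusted p = 0.0128). At 1772 bp from a more downstream start site (chr2:93450500-93451300) they held 185 and 197 against 116 and 125 (-0.66, SE 0.18, adjusted p = 0.0281), and at 2845 bp (chr2:93449427-93450227) 183 and 143 against 110.1 and 89.0 (-0.70, SE 0.21, adjusted p = 0.0411). The promoter region with the highest level (chr2:93461621-93462421, over the Cd82 window printed above) held 163 and 154 in WT and 149.9 and 133 in GrnKO. Its log2 change was -0.16 (SE 0.19, adjusted p = 0.652), and 0.06 with the authors' scaling. The 9 regions upstream of Cd82, at -6380 to -55136 bp, were not tested for lack of tags.

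At Cd53 the promoter region (chr3:106789756-106790556) held 235 and 245 scaled tags in WT and 157 and 177 in GrnKO. Its log2 change of -0.53 (SE 0.17) did not pass the test, with a limma adjusted p of 0.0537. The adjusted p was 0.0211 with the replicate number as a block, 0.0455 with a pseudocount of 5 and 0.0218 without WT replicate 1, but 0.556 without GrnKO replicate 1 and 0.593 with the authors' scaling (log2 change -0.30). The largest change of the gene in the other direction was in intron 1 of 7 at 4892 bp, with 14.1 and 16.0 in WT and 29.7 and 30.4 in GrnKO (0.96, adjusted p = 0.173). At Cd37 all 4 tested regions lie around the start site and were close in all libraries, and the highest (chr7:45238441-45239241) held 246 and 279 in WT and 317 and 264 in GrnKO (0.14, SE 0.15, adjusted p = 0.637). At Cd151 the promoter region (chr7:141466960-141467760) held 32.8 and 42.7 in WT and 48.7 and 27.4 in GrnKO. Its GrnKO replicates differed more than the genotypes did (-0.03, SE 0.36, adjusted p = 0.971).

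To ask whether acetylation moved more away from the start site than at it, the log2 ratio of distal to promoter tags was compared within each library, which removes the scaling of libraries. Of the 6 members that could be tested 0 were called, beside 2 of 7338 genes called in all (0.0273%; 963 at an unadjusted p under 0.05). At Cd63 the distal share of tags was 17.4% and 22.1% in WT and 27.8% and 24.5% in GrnKO (log2 change of the ratio 0.53, SE 0.32, limma adjusted p = 0.560; 0.074 with 3000 bp in place of 1000 bp as the limit). Cd82 went the other way, with 72.9% and 74.8% in WT and 66.4% and 69.2% in GrnKO (-0.42, SE 0.20, adjusted p = 0.463; 0.045 with 3000 bp as the limit). For Cd151 the shares were 28.8% and 32.7% in WT against 44.2% and 45.0% in GrnKO, the only member at an unadjusted p under 0.05 (0.83, SE 0.25, adjusted p = 0.327). For Cd53 they were 70.9% and 72.5% in WT against 78.1% and 76.6% in GrnKO (0.43, SE 0.19, adjusted p = 0.446). The distal share of Cd9 was 91.9% to 92.9% in all libraries, with changes of the ratio of 0.10 for Cd9 and 0.03 for Cd81 (-0.14 without GrnKO replicate 2). Thus the separate calls of distal regions at Cd9, Cd81 and Cd82 were not matched by a called difference from their promoters.

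Against the input of the same pool, the summed H3K27ac of Cd9 was 20.0 to 35.1 times higher, that of Cd81 33.7 to 99.3 times and that of Cd63 12.1 to 110 times in 3 pools, with 1 scaled tag added to each side of the ratio. For Cd63 in WT replicate 2 the input held 1.06 scaled tags, under the floor of 3 tags (3.21 scaled), and no ratio is given. The lowest Cd63 value was that of WT replicate 1, whose input held 41.7 scaled tags at the region at its transcription end, against 0 at the other 8 Cd63 regions. For Cd151 the ratio was 1.06 in WT replicate 1, whose input tags (53.95) all lay in the promoter region at chr7:141466960-141467760, and 5.91 in GrnKO replicate 1. The inputs of the other 2 pools held 0 tags at Cd151. In 17 of the 99 regions the input exceeded H3K27ac in at least 1 pool.

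Among 24 other tetraspanin genes, 16 could be tested. By limma 3 were higher and 4 lower in GrnKO, beside 8.55% and 5.85% of all genes. The median log2 change was -0.06, against -0.05 for all genes, and it was -0.20 without WT replicate 2, -0.11 without GrnKO replicate 1 and -0.23 without GrnKO replicate 2. These last 3 medians cover 18, 19 and 18 genes and not the same 16, as more genes then passed the filter on low tags. Tspan7 rose from 336 ± 1.44 to 692 ± 33.3 scaled tags (SD, n = 2 each; log2 change 1.04, adjusted p = 0.000200), close to the size seen at Cd63. Tspan9 rose from 305 ± 23.2 to 624 ± 6.00 (1.03, adjusted p = 0.000296) and Tspan3 from 897 ± 91.0 to 1330 ± 88.8 (0.57, adjusted p = 0.00423). Tspan32 fell from 1585 ± 214 to 978 ± 7.12 (-0.69, adjusted p = 0.00117), Tspan33, of the subgroup that guides the protease Adam10, from 62.2 ± 8.76 to 22.02 ± 0.473 (-1.45, adjusted p = 0.0150), and Upk1b, a tetraspanin of the urothelium, from 468 ± 66.9 to 307 ± 17.8 (-0.60, adjusted p = 0.0193). Tspan13, named after its values were seen as the last of the 4, fell from 1082 ± 5.91 to 846 ± 25.6 (-0.35, adjusted p = 0.0415). With the authors' scaling the 3 higher genes were called and 1 of the 4 lower, Tspan33. Tspan14, another Adam10 partner, held 5884 ± 426 in WT and 6097 ± 132 in GrnKO (0.05, adjusted p = 0.703).

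**Figure D5:**
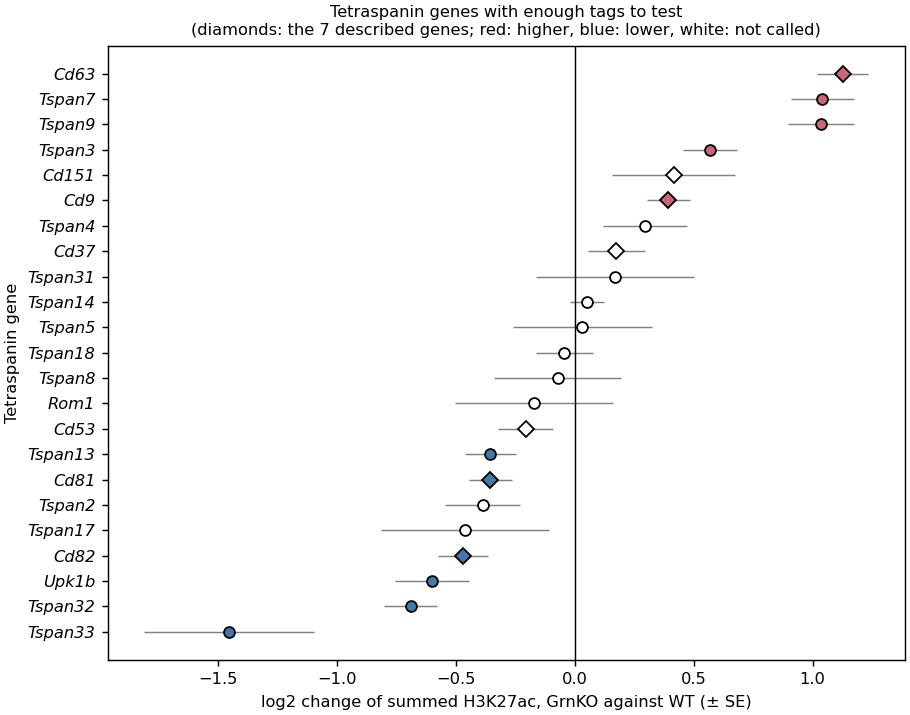
The log2 change ± SE of summed H3K27ac, GrnKO against WT (horizontal axis), of the 23 tetraspanin genes with enough tags to test, ordered by size. Diamonds are the 7 described genes and circles the others; red is called higher, blue lower and white not called. Cd63 at 1.13 lies at the upper end beside Tspan7 and Tspan9, and Tspan33 at -1.45 at the lower end; with the authors' scaling the blue genes other than Tspan33 are not called.

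Of 8 genes for proteins that tetraspanins bind, all 8 were tested, with 2 higher and 1 lower, beside 8.55% and 5.85% of all genes. The median log2 change of the list was 0.39. That median was 0.19 without WT replicate 1, 0.13 without WT replicate 2 and 0.19 without GrnKO replicate 1. Clec7a, the pattern receptor dectin-1 that CD37 binds, rose from 318 ± 28.3 to 583 ± 66.3 (SD, n = 2 each; log2 change 0.87, limma adjusted p = 0.00149). Itga4, the integrin alpha 4 chain, rose from 493 ± 72.3 to 921 ± 212 (0.89, adjusted p = 0.00233). Itga6, the integrin alpha 6 chain that CD151 binds, fell from 814 ± 0.182 to 604 ± 42.2 (-0.43, adjusted p = 0.0280; 0.693 with the authors' scaling). The Cd9 partner Igsf8 held 1027 ± 142 and 1067 ± 60.8 (0.06, adjusted p = 0.803).

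Of 25 genes that act in forming multivesicular bodies and exosomes, 23 were tested, with 2 higher and 3 lower. Of all genes tested, 8.55% were called higher and 5.85% lower. The median log2 change of the list was -0.26. That median was -0.13 without WT replicate 1, -0.16 without GrnKO replicate 1 and -0.04 with the authors' scaling. The median of all genes was -0.05 with TMM factors and 0.18 with the authors' scaling, so the list lay below it under both. Sdcbp, which encodes syntenin-1, an adaptor that binds the tail of CD63, rose from 1393 ± 111 to 2125 ± 51.1 (SD, n = 2 each; log2 change 0.61, limma adjusted p = 0.000890). Chmp6, a subunit of the membrane-cutting complex ESCRT-III, rose from 634 ± 119 to 1030 ± 31.8 (0.71, adjusted p = 0.00318). The ESCRT-II subunit Snf8 fell by 0.77 (adjusted p = 0.0236), and the recycling GTPases Rab35 and Rab11a fell by 0.64 (adjusted p = 0.0300) and 0.27 (adjusted p = 0.0473) on the log2 scale. With the authors' scaling the list had 3 higher and 0 lower, with Rab7 called (log2 change 0.71, adjusted p = 0.0301). Of 9 membrane proteins that share late endosomes and lysosomes with CD63, 4 were higher and 0 lower, with a median of 0.31. Cd68 rose from 730.4 ± 23.8 to 1263 ± 59.5 (0.79, adjusted p = 0.000351), the lysosomal cation channel gene Mcoln1 from 86.1 ± 13.7 to 181 ± 8.38 (1.07, adjusted p = 0.00551) and Lamp1 from 344 ± 81.7 to 545 ± 33.3 (0.68, adjusted p = 0.0150). The fourth was the cholesterol transporter gene Npc1, named after its values were seen, at 0.52 (adjusted p = 0.0152). Fewer of these 9 were called without GrnKO replicate 2. Without either GrnKO library, lower calls were fewer among the other tetraspanin genes, the partner genes and the multivesicular body genes. Higher calls in these 3 lists stayed the same or nearly so. Calls over all genes, higher and lower, were fewer in both cases. The lists were written with earlier results of these data known, so their counts are descriptive.

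The genes closest to each called member over the 4 H3K27ac libraries were found by the Euclidean distance between log2 sums set to their WT mean. For Cd63 they were Tox2 (239 and 229 in WT, 506 and 493 in GrnKO; distance 0.0746), Socs6 (0.0786) and Mir3089 (0.0840). For Cd9 they were Pprc1 (0.0275), Tprkb (0.0338) and Dusp27 (0.0391). For Cd81 they were Armc7 (0.0292), Rpl12 (0.0327) and Nf2 (0.0329), and for Cd82 Mir8105 (0.0159), Traf1 (0.0183) and Hist1h2bb (0.0329). The nearest called regions to Cd63 that belong to another gene were at the promoter of Rdh5, 10028 and 10300 bp downstream of its start site. The first of them held 8.99 and 20.7 scaled tags in WT and 75.8 and 50.2 in GrnKO (log2 change 2.09, limma adjusted p = 0.00356), and the second was called too (2.18, adjusted p = 0.0184). Within 50000 bp of the start sites of Cd9, Cd82, Cd37, Cd53 and Cd151, 0 regions of other genes were called, where 2, 0, 3, 1 and 23 such regions could be tested.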

How the data were processed

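H3K27ac ChIP-seq and input libraries of PU.1-positive nuclei were read from the authors' deposited table of 129304 regions, each 800 bp wide. Per the file headers, the regions are merged reproducible ATAC-seq peaks, and the values are a signal, namely region tags that the authors brought to a common library total of 10000000. The submitters' processing notes name Bowtie2, HOMER and DESeq2 without role or version, and the build mm10. All 8 value columns were matched to samples through the titles. Multiplying the deposited signal by the library total gave whole read ends, at 2 per tag, for 100% of values within 0.05 ends. Reads carry no molecular identifiers here, so the floor of 3 tags (1.50 to 1.94 scaled tags in the H3K27ac libraries) covers counting error only.

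Regions, and tags summed over all regions of a gene, were kept by filterByExpr (minimum 10 tags), divided by TMM factors and tested with limma (lmFit, eBayes with trend) on log2(value + 1) in the 4 H3K27ac libraries, two-sided, with Benjamini-Hochberg adjustment over all 80914 regions or 15396 genes at 0.05. Fold changes on this scale understate the change of low values. The ratio of distal (over 1000 bp from a start site) to promoter tags was tested in the same way over 7338 genes. Tools were R 4.3.3, limma 3.58.1, edgeR 4.0.16 and DESeq2 1.42.0, and each limma test was checked on simulated tags. The p-values rest on the spread between 2 pools per genotype, which eBayes draws towards the trend of all regions or genes tested. They do not measure the spread of a single gene or region alone. Replicate numbers were not used as pairs: the labels tie no pools together, and there are 2 pairs.

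The members and gene lists were chosen with earlier results of these data known. Named with full statistics were, for each member, the promoter region with the highest level and up to 3 regions per direction ranked by p. From each other list up to 3 genes per direction with the smallest p were named, and for each called member the 3 genes nearest to it. Tspan13, Tspan14, Igsf8, Rab7, Npc1 and the regions of Tspan32 and Rdh5 fall outside this rule and were named after their values were seen. Sequences are from RefSeq's table for GRCm38.p6, and the start sites of the authors' annotation were compared with it by position for these 7 genes. For Cd63 1 of 3 and for Cd37 1 of 2 lay within 10 bp of a RefSeq start site. For the other genes all did. Some genes of the marker and partner lists are not reported here, and the counts and sums of those lists are without them.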

Additional observations from a re-analysis of the deposited data

How the results depend on the processing

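Over the alternatives, 287 of 355 log2 changes kept their direction and side of the threshold. Of the others, 55 lost their call, 5 gained a call and 8 reversed. The 287 include changes that were not called to begin with, among them those of the distal to promoter ratio. Of the counts of calls, 51 of 72 were within 1.5 times the reported count. Those 51 include the counts of the distal to promoter ratio, by which 0 members were called under every setting. That test called at most 2 of all genes, so its agreement was all but fixed beforehand. The 21 counts that moved all belong to the other tests. Subtracting the input left 0 member regions and 0 member genes called in either direction, where 0 genes and 1 region of all those tested were called by limma (2597 genes and 13472 regions at an unadjusted p under 0.05); the cause was not tested. The authors' scaling gave 0 lower regions, 1 higher gene and 0 lower genes. Lower regions numbered 2 without a filter and 2 by DESeq2, and a 2-fold minimum left 8 higher and 0 lower. Leaving out each library in turn gave 3 to 22 higher and 0 to 10 lower regions, 2 higher genes each time and 0 to 2 lower genes; the lone library of a genotype was then assumed to vary like the other genotype. The fewest member regions were called without GrnKO replicate 1 and the most without WT replicate 2. Calls over all regions and over all genes moved too. They fell without either GrnKO library and rose without either WT library. Promoter regions alone gave 1 higher and 0 lower genes, and all regions within 10000 bp of the start sites 1 higher. With a replicate block the counts were 19 higher and 7 lower regions and 2 and 2 genes; same-numbered libraries were not correlated in their deviations (Pearson's r 0.0332 across 80914 regions, which are not independent), and the labels tie no pools together, so the numbers were not used as a pairing, although they separate the pools at Xist and Y-linked promoters.

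Log2 changes that reversed, none of them called, were those of Cd53 (0.020 with the authors' scaling), the Cd82 promoter region at 93461621 (0.061 with the authors' scaling), the Cd151 promoter region (0.19 with the authors' scaling, 2.24 with input subtracted, 0.15 without WT replicate 2 and 0.37 without GrnKO replicate 2, over a range of -0.44 to 0.37 with each library left out), the distal to promoter ratio of Cd81 (-0.14 without GrnKO replicate 2) and that of Cd82 (0.045 with 3000 bp as the limit). Cd151 had the fewest tags of the 7 genes, 88.5 to 202.5 per library.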
